A study of Mus musculus with 4 samples.

Results

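The genes described here code for chemokine ligands, the small secreted proteins that guide the movement of white blood cells. They were taken from a microarray table of mouse peritoneal macrophages as every gene whose symbol begins with Ccl, Cxcl, Cx3cl or Xcl followed by a number, counting only probes annotated with exactly 1 gene and averaging the probes of a gene. This gave 34 genes of 19938 measured. Of these, 23 had at least 1 of 4 array values at or above log2 7.09, the median of all values, and were kept, beside 11174 kept genes in all. The other 11 had control values of 4.65 to 6.88, too dim for their differences to be read. Levels are log2 RMA values as the authors deposited them, and a difference is 1 array's log2 value minus another's.

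Macrophages from the peritoneal cavity of wild type C57BL/6 mice, 8 to 12 weeks old, were elicited with 1 mL of 4% thioglycolate given into the cavity 3 days before harvest, and non-adherent cells were removed 3 h after plating. The groups were 500 µM palmitic acid (C16:0, saturated), 500 µM oleic acid (C18:1, with 1 double bond), 500 µM linoleic acid (C18:2, with 2 double bonds), each complexed with bovine serum albumin (BSA), and a control, all for 6 h. The control is labelled as BSA only, while the treatment protocol describes its vehicle as ethanol with KOH. RNA of 3 samples (integrity number over 8.0) was pooled in each group, and 100 ng of the pool was labelled for a single Affymetrix array. The labels do not say whether the 3 samples came from separate mice. Each value below is therefore 1 measurement of a pool, no difference has a replicate check, and no test was made. All 4 groups share the elicitation and the plating, so no array shows resting peritoneal cells.

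Chemokines bind receptors on the surface of other cells and direct them along a gradient. Macrophages release several kinds: ligands of CXCR3, which attract activated T cells and NK cells and are classical products of interferon signalling; ligands of CCR4, which attract Th2 and regulatory T cells and are linked to IL-4, GM-CSF and IRF4; and ligands of CXCR2, CCR1 and CCR2, which attract neutrophils and monocytes and follow NF-kB. A chemokine gene may answer to several of these signals.

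With palmitic acid, 4 kept chemokine genes lay below the control by 1.5-fold or more and 0 lay above it by as much. They were Cxcl9 and Cxcl11 among the CXCR3 ligands and Ccl22 and Ccl17, the pair of CCR4 ligands. The genes for neutrophil and monocyte attractants that were kept were mostly bright in all arrays and lay within 1.5-fold of the control. Neither oleic acid nor linoleic acid gave a difference of 1.5-fold from the control at any kept chemokine gene.

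The DNA before the start sites of the genes that carry this contrast is shown first, so that the lower genes can be set beside a bright gene of the same cluster. Sequences are from RefSeq on mouse build GRCm38.p6, read 5′ to 3′ on the gene's own strand, and end at the base before the annotated start. Those of Cxcl9 (chr5:92328080-92328329, minus strand), Cxcl10 (chr5:92348890-92349139, minus strand), Ccl17 (chr8:94810203-94810452, plus strand) and Ccl22 (chr8:94745434-94745683, plus strand) are 250 bases long. Capitals mark matches to any of 4 motifs searched on both strands: the NF-kB consensus, the STAT motif TTCNNNGAA, the STAT6 motif TTCNNNNGAA and the core of the interferon-stimulated response element, GAAANNGAAA.
Cxcl9: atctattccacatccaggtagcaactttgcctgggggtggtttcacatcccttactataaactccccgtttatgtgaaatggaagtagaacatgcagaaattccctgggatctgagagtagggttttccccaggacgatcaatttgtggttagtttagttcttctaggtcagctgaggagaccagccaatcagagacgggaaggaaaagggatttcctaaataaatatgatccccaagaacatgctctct
Cxcl10: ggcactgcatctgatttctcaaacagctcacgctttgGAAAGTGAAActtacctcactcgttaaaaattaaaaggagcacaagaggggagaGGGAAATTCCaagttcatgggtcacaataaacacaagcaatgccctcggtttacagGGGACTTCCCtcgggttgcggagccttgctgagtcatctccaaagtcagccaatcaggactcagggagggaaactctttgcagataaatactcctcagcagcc
Ccl17: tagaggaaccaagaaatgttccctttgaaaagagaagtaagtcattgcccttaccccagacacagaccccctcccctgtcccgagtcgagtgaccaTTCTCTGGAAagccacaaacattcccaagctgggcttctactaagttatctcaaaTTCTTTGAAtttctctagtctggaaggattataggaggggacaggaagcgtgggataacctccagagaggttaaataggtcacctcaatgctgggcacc
Ccl22: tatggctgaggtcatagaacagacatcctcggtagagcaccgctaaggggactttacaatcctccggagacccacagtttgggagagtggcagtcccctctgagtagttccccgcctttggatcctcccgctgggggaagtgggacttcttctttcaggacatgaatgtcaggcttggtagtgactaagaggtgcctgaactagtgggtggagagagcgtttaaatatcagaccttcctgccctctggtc

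Within the RefSeq window of 300 bases, 250 before and 50 after the start, Cxcl10 held the GAAANNGAAA core 213 bases upstream and NF-kB matches 159 and 103 bases upstream. Ccl17 held TTCNNNNGAA 154 bases upstream and TTCNNNGAA 99 bases upstream. The windows of Cxcl9 and Ccl22 held none of these letters, which says nothing about binding elsewhere. Over all 32851 windows of this length, 4.51% held the NF-kB consensus, 8.30% TTCNNNGAA, 6.95% TTCNNNNGAA and 3.44% GAAANNGAAA. Among the 15 kept chemokine genes with a window, these 4 motifs were found in 5, 2, 1 and 3 in the same order. A match is a string of letters and not a measured site. The 8 kept genes not matched to a window were Ccl2, Ccl4, Ccl5, Ccl7, Ccl24, Cxcl11, Cxcl16 and Cxcl17.

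The next 3 sequences are the 120 bases before the starts of the neutrophil attractants Cxcl1 (chr5:90891125-90891244), Cxcl2 (chr5:90903779-90903898) and Cxcl3 (chr5:90785981-90786100), all on the plus strand. They are shown because Cxcl3 differed from Cxcl1 and Cxcl2 in the palmitic acid array while all 3 hold an NF-kB match, in capitals, 71, 97 and 73 bases upstream.
Cxcl1: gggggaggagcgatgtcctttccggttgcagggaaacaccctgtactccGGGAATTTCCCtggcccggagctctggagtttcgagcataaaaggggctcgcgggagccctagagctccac
Cxcl2: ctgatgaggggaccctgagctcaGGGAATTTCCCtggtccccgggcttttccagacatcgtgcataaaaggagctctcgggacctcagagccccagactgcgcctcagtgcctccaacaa
Cxcl3: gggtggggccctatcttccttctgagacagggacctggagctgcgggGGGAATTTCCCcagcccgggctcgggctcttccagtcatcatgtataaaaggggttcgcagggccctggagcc

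Macrophage identity was checked against 9 measured marker genes, all kept, with values from 10.03 to 13.92 over the 4 arrays. Markers of T and NK cells, B cells, neutrophils, eosinophils, mast cells and dendritic cells were mostly below the filter, with 3 of 9, 1 of 4, 1 of 7, 1 of 4, 1 of 5 and 1 of 6 kept. Of 14 measured mesothelial and fibroblast markers 10 were kept. All 10 were lower in the palmitic acid array than in the control, beside 5577 of 11174 kept genes, with a median difference of -0.25. The markers not kept split in sign, with Krt19 (0.03) and Lum (0.11) higher and Upk3b (-0.07) and Lrrn4 (-0.05) lower. Their summed signal was log2 12.2 with palmitic acid, 12.5 with oleic acid, 12.7 with linoleic acid and 12.6 in the control. The palmitic acid differences of Pdgfra and Pdgfrb, receptors of platelet-derived growth factor on fibroblasts, were -0.86 and -1.29. These were the 2 of the 10 at least 1.5-fold lower there, beside 1.41% of all kept genes. With oleic acid the differences of Pdgfra and Pdgfrb were -0.06 and -0.71. Pdgfrb was thus also more than 1.5-fold lower there, beside 0.340% of all kept genes. With linoleic acid the differences were 0.06 and 0.16. The median of the list was -0.04 with oleic acid and 0.04 with linoleic acid (-0.0012 with quantile normalisation repeated). The part of these cells in the chemokine results was not tested, and in a pool of RNA fewer cells of a type and less RNA per cell cannot be told apart.

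**Figure D1:**
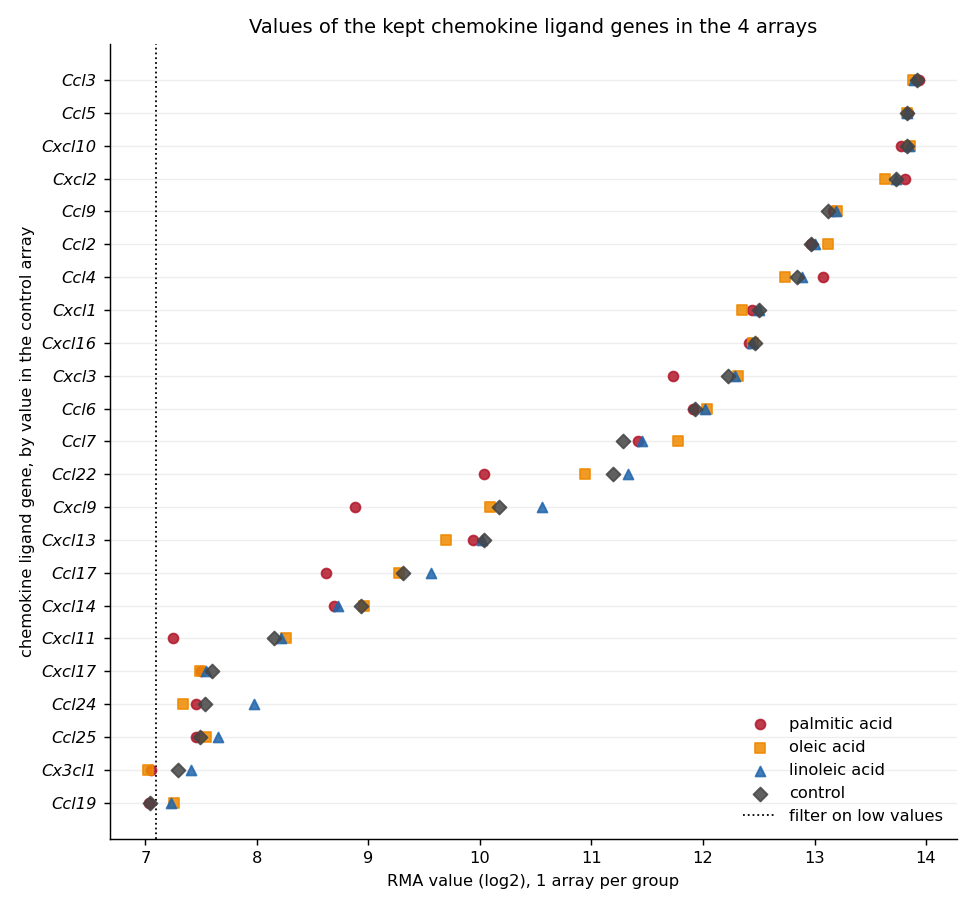
RMA value (log2, x axis) of the 23 kept chemokine ligand genes (rows, ordered by the control value) in the palmitic acid, oleic acid, linoleic acid and control arrays, 1 array per group, with the filter at 7.09 dotted. The palmitic acid point stands to the left of the other 3 for Cxcl9, Ccl22, Cxcl11, Ccl17 and Cxcl3, while the points of the brightest rows lie almost on top of each other.

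Cxcl9, an interferon gamma-inducible T cell attractant, had the lowest palmitic acid value relative to the other arrays. Its level was log2 8.88 with palmitic acid, 10.09 with oleic acid, 10.56 with linoleic acid and 10.17 in the control. The palmitic acid array was low and the linoleic acid array high, with oleic acid beside the control. The difference between palmitic acid and control was -1.29, or 2.44-fold lower, the 8th lowest of the 11174 kept genes. Against oleic acid it was -1.21, or 2.31-fold lower. Against linoleic acid it was -1.67, or 3.19-fold lower, and no kept gene had a lower difference in that comparison. Linoleic acid itself lay 0.39 above the control, the 47th highest difference of that comparison and 1.31-fold. The markers of T and NK cells, the main sources of interferon gamma, had a summed signal of log2 9.53 with palmitic acid, 9.48 with oleic acid, 9.51 with linoleic acid and 9.46 in the control. Of these 9 markers, 6 to 8 lay below the filter in each array, so the sums are mostly dim signal. The interferon gamma gene Ifng itself was at 7.11 with palmitic acid, 6.63 with oleic acid, 6.88 with linoleic acid and 6.81 in the control. It passed the filter only through the palmitic acid array. Whether interferon gamma or its source cells differed was not tested.

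Cxcl11, the third ligand of CXCR3, is listed by RefSeq as a transcribed pseudogene in the reference strain C57BL/6J, and its probe measures that transcript. Its level was 7.25 with palmitic acid, 8.26 with oleic acid, 8.21 with linoleic acid and 8.15 in the control. Only the palmitic acid array was low, and it lay near the filter. The difference from control was -0.90, or 1.87-fold lower, and from oleic acid and linoleic acid it was -1.02 and -0.97.

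Cxcl10, the ligand whose gene lies between those of Cxcl9 and Cxcl11 on chromosome 5, did not share these differences. Its level was 13.78 with palmitic acid, 13.85 with oleic acid, 13.85 with linoleic acid and 13.83 in the control. All 4 arrays lay within 0.07 of each other, and the palmitic acid difference from control was -0.05. These values are close to 14.4, the highest of any probe on any array. Among the 149 kept genes at or above 13 in the control, the robust SD of palmitic acid differences, a measure of spread from the median absolute deviation, was 0.076 and 0.671% of genes passed 1.5-fold, so a value at this brightness does not show that Cxcl10 was unchanged. Among the 2603 genes between 10 and 12, where Cxcl9 lies, the robust SD was 0.21 and 4.99% passed.

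**Figure D2:**
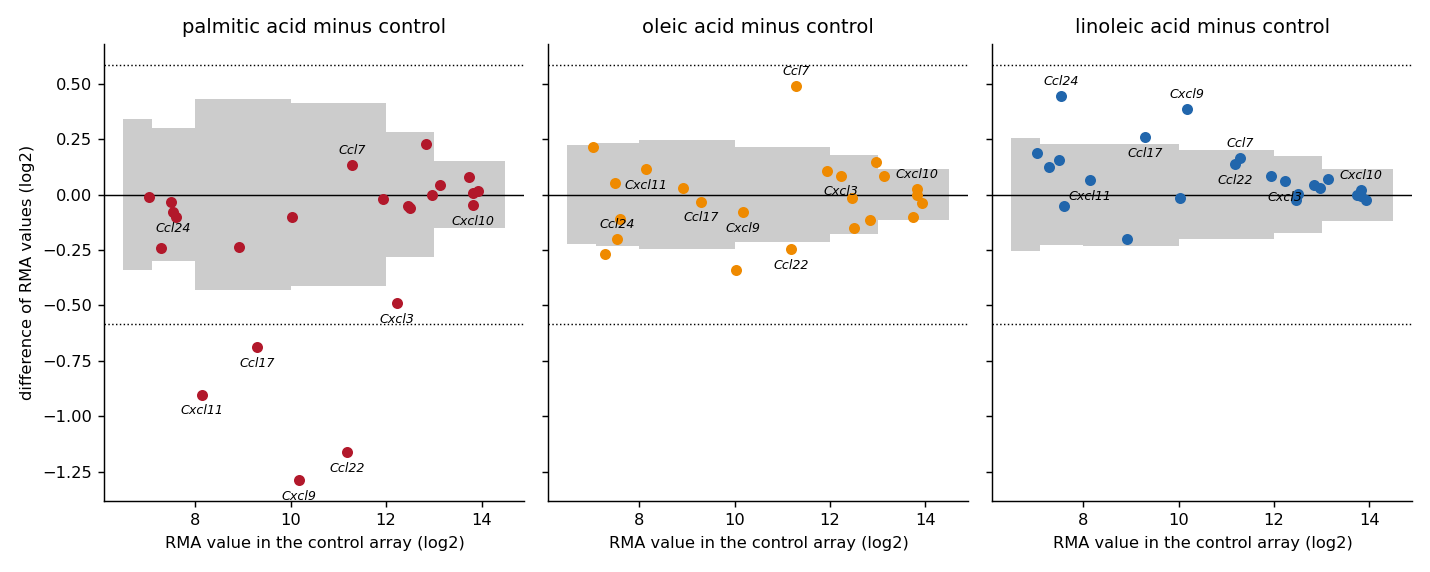
Difference of each kept chemokine gene from the control (log2, y axis) against its RMA value in the control array (log2, x axis), in a panel for palmitic acid, oleic acid and linoleic acid. Grey bands are plus and minus 2 robust SD of all kept genes in bins of control brightness, and dotted lines mark 1.5-fold. With palmitic acid Cxcl9, Ccl22, Cxcl11 and Ccl17 lie below the lower dotted line and Cxcl3 between it and the band, while the band narrows above 12.

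Both ligands of CCR4 were lower with palmitic acid. Ccl22, a macrophage and dendritic cell product that draws regulatory T cells, had a level of 10.03 with palmitic acid, 10.95 with oleic acid, 11.33 with linoleic acid and 11.19 in the control. The palmitic acid array was the lowest and oleic acid stood slightly under the control. The difference between palmitic acid and control was -1.16, or 2.24-fold lower, the 19th lowest of all kept genes. It was -0.91 against oleic acid and -1.30 against linoleic acid.

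Ccl17, the other CCR4 ligand, had a level of 8.62 with palmitic acid, 9.27 with oleic acid, 9.56 with linoleic acid and 9.31 in the control. The order of the arrays was that of Ccl22 at its ends, lowest with palmitic acid and highest with linoleic acid. The palmitic acid difference from control was -0.69, or 1.61-fold lower, the 113th lowest. It was -0.65 against oleic acid and -0.94 against linoleic acid. Dendritic cells also make both ligands, and of their 6 markers 5 lay below the filter in each array, the control included. The summed signal of these 6 was log2 8.84 with palmitic acid, 8.91 with oleic acid, 8.97 with linoleic acid and 8.91 in the control, and their part in the result was not tested. Cx3cl1, which codes for the membrane-bound ligand fractalkine and lies between Ccl22 and Ccl17 in the gene order of chromosome 8, was dim, with 7.05 with palmitic acid, 7.02 with oleic acid, 7.41 with linoleic acid and 7.29 in the control. Its palmitic acid difference of -0.24 was within 1.5-fold, as was the 0.39 between linoleic acid and oleic acid.

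The ligands of CXCR2 that carry the ELR motif attract neutrophils, and 3 of 5 were kept. Cxcl2 had a level of 13.81 with palmitic acid, 13.64 with oleic acid, 13.73 with linoleic acid and 13.73 in the control. Cxcl1 had 12.44 with palmitic acid, 12.35 with oleic acid, 12.50 with linoleic acid and 12.50 in the control. For both, oleic acid was the lowest array and the palmitic acid differences from control were 0.08 and -0.06. Cxcl3 had a level of 11.73 with palmitic acid, 12.31 with oleic acid, 12.28 with linoleic acid and 12.22 in the control, so that only its palmitic acid array was low. Its difference was -0.49 against the control, or 1.40-fold, -0.58 against oleic acid, or 1.49-fold, and -0.55 against linoleic acid, or 1.46-fold, each inside the limit of 1.5-fold. Against oleic acid it passed that limit under both other scalings, with -0.59 with array medians centred and -0.61 with quantile normalisation repeated. It was the chemokine gene nearest to that limit among those that did not pass it against the control, as Ccl17 was among those that did. Cxcl5 and Cxcl15 were not kept.

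The 5 inflammatory CC ligands Ccl3, Ccl4, Ccl5, Ccl6 and Ccl9, which attract monocytes and other white blood cells, were all kept and all bright. Ccl3, or MIP-1 alpha, had a level of 13.94 with palmitic acid, 13.88 with oleic acid, 13.89 with linoleic acid and 13.92 in the control. Ccl5, or RANTES, had 13.84 with palmitic acid, 13.83 with oleic acid, 13.83 with linoleic acid and 13.83 in the control, the narrowest spread of any kept chemokine gene (0.01). Neither gene separated the arrays. Both were at or above 13 in the control, where 0.671% of genes passed 1.5-fold with palmitic acid. As with Cxcl10, values at this brightness do not show that they were unchanged. Ccl4, or MIP-1 beta, was highest with palmitic acid, at 13.08, against 12.73 with oleic acid, 12.89 with linoleic acid and 12.85 in the control. Its 0.23 above the control was the highest palmitic acid difference of the kept chemokine genes and under 1.5-fold. The mouse chemokines Ccl6 and Ccl9 had control levels of 11.93 and 13.12 and palmitic acid differences of -0.02 and 0.04.

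Of 4 monocyte attractants that act through CCR2 and related receptors, Ccl2 and Ccl7 were kept and Ccl8 and Ccl12 were not. Ccl2, or MCP-1, had a level of 12.97 with palmitic acid, 13.12 with oleic acid, 13.002 with linoleic acid and 12.97 in the control. Ccl7, or MCP-3, had 11.42 with palmitic acid, 11.77 with oleic acid, 11.45 with linoleic acid and 11.28 in the control. In both the oleic acid array was the highest. The oleic acid difference from control of Ccl7 was 0.49, or 1.40-fold, the 68th highest of 11174, and that of Ccl2 was 0.14. Ccl7 was the kept chemokine gene with the highest oleic acid difference.

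The eosinophil attractant Ccl24 (eotaxin-2) was the 1 kept chemokine gene at least 1.5-fold apart between the unsaturated fatty acids. Its level was 7.98 with linoleic acid, 7.33 with oleic acid, 7.45 with palmitic acid and 7.53 in the control. The linoleic acid array was high, the palmitic acid and oleic acid arrays differed from the control by -0.08 and -0.20, and all 4 lay near the filter. Linoleic acid was 0.64 above oleic acid, or 1.56-fold higher, and 0.44 above the control, the 22nd highest difference in that comparison. The mast cell marker Kit, the 1 kept of 5, was also high with linoleic acid, at 7.64, against 7.30 in the control. It was at 6.85 with oleic acid and 6.85 with palmitic acid, both below the filter. The other 4 markers were not kept and split in sign between linoleic acid and oleic acid. Their differences were 0.12 (Tpsb2), 0.09 (Cpa3), -0.04 (Fcer1a) and -0.17 (Mcpt4). With Kit included, the 5 markers summed to log2 8.71 with linoleic acid and 8.37 with oleic acid. The part of mast cells in the Ccl24 value was not tested. The eosinophil markers summed to 9.30 with linoleic acid and 9.38 with oleic acid. Ccl11 (eotaxin-1) was not kept, with a level of 6.88 with palmitic acid and 6.87 in the control.

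The remaining class held homeostatic and other ligands, of which 7 of 13 were kept. Cxcl16, a membrane-bound ligand of CXCR6 that also acts as a scavenger receptor, had a level of 12.41 with palmitic acid, 12.45 with oleic acid, 12.44 with linoleic acid and 12.47 in the control. Cxcl13, which attracts B cells through CXCR5, had 9.93 with palmitic acid, 9.69 with oleic acid, 10.02 with linoleic acid and 10.03 in the control. Cxcl16 was level over the arrays, and Cxcl13 was lowest with oleic acid, with -0.34 against the control. All 7 lay below the control with palmitic acid, beside 5577 of 11174 kept genes. Their differences were between -0.24 and -0.01, none of them 1.5-fold. Ccl19, Ccl25, Cxcl14 and Cxcl17 had control levels of 7.05, 7.49, 8.93 and 7.60. The pair of Ccl25 probes disagreed in sign, with palmitic acid differences of -0.21 and 0.14. The dim genes of the class were Ccl1, Ccl20, Ccl26, Ccl28, Cxcl12 and Xcl1. Probes annotated with several genes stayed outside the 34: those of the Ccl21 copies and the Ccl27 copies had palmitic acid differences of -0.11 and -0.06.

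**Figure D3:**
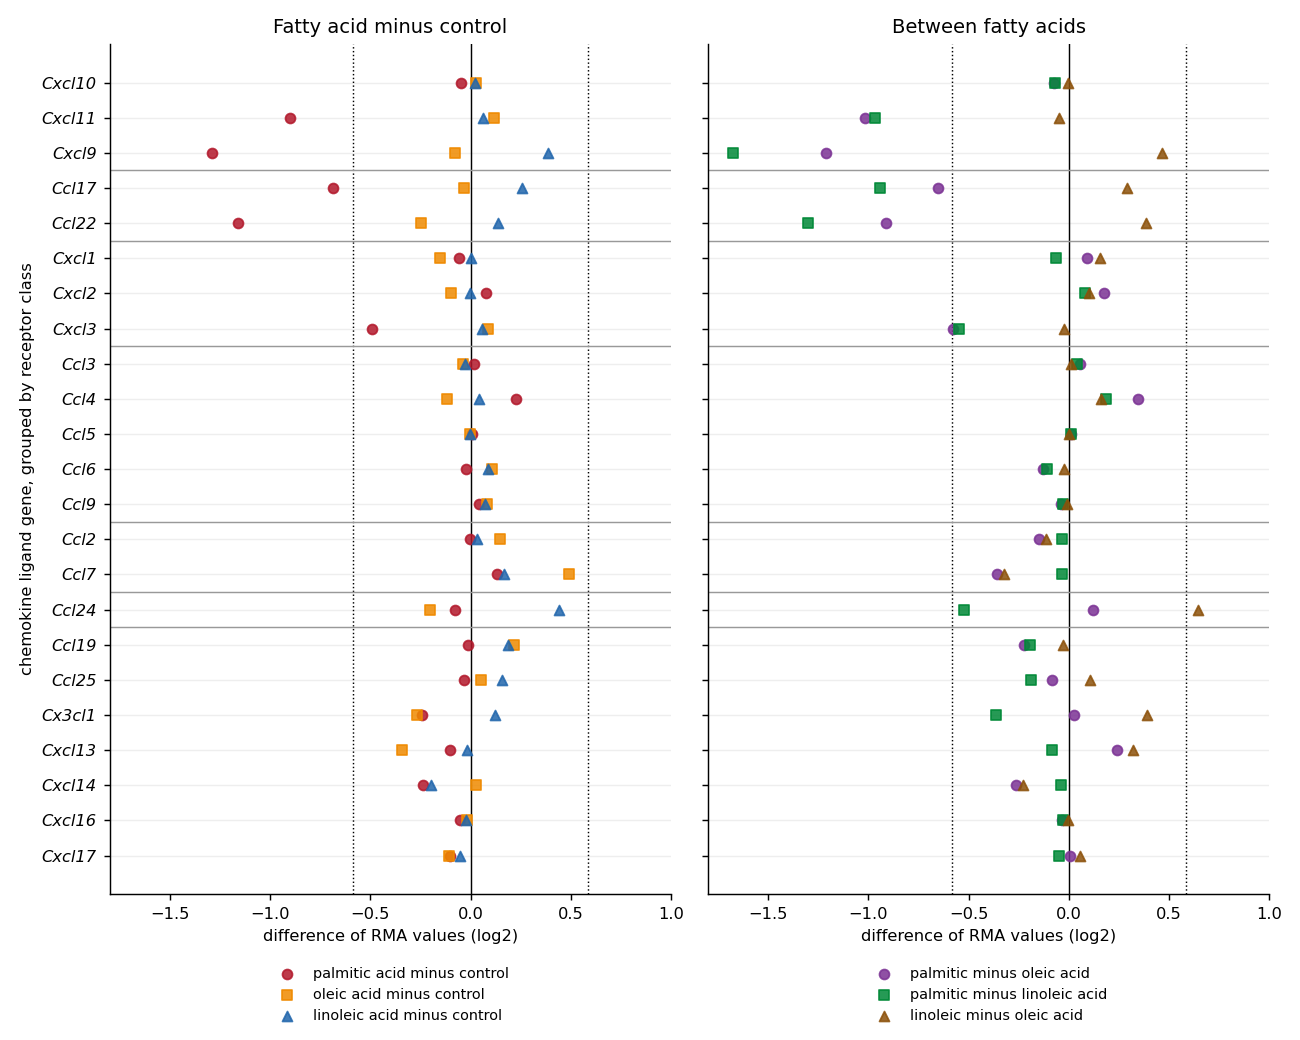
Differences of RMA values (log2, x axis) for the 23 kept chemokine genes (rows, grouped by receptor class, from the CXCR3 ligands at the top to the homeostatic ligands at the bottom), for each fatty acid minus control on the left and between fatty acids on the right. Dotted lines mark 1.5-fold. Cxcl9, Cxcl11, Ccl17 and Ccl22 lie beyond the lower line in all 3 comparisons that hold the palmitic acid array, and Ccl24 lies beyond the upper line for linoleic minus oleic acid.

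Read against the background of all kept genes, 4 of 23 chemokine genes (17.4%) were lower by 1.5-fold or more with palmitic acid than in the control, beside 1.41% of 11174, and 0 were higher, beside 2.17%. The median difference of the 23 was -0.05, beside 0.00059 over all kept genes. Of the 23, 17 lay below 0 (16 with array medians centred), beside 5577 of 11174 kept genes. Between palmitic acid and oleic acid, 4 were lower (5 with Cxcl3 under either other scaling), beside 1.66%, and 0 higher, beside 1.82%. Between palmitic acid and linoleic acid, 4 were lower, beside 2.01%, and 0 higher, beside 1.58%. The same 4 genes made up each count, and these 3 comparisons share the palmitic acid array, so they are not independent of each other.

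The other comparisons held few chemokine genes. Between oleic acid and control, 0 were higher, beside 0.376% of all kept genes, and 0 lower, beside 0.340%. Between linoleic acid and control, 0 were higher and 0 lower, beside 0.0358% in each direction. At these rates, an absence among 23 genes is near the background. Between linoleic acid and oleic acid, 1 was higher, beside 0.707%, and 0 lower, beside 0.340%. The median chemokine difference was -0.02 for oleic acid and 0.06 for linoleic acid against the control, beside 0.01 and 0.04 over all kept genes. The oleic acid median turned sign under the other scalings (0.0038 with array medians centred and 0.0042 with quantile normalisation repeated), and the linoleic acid median was 0.02 with array medians centred.

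By position, the 4 genes lower with palmitic acid lie in 2 clusters. On chromosome 5, Cxcl9 and Cxcl11 flank Cxcl10, with the unrelated gene Art3 between Cxcl9 and Cxcl10. On chromosome 8, Ccl22 and Ccl17 flank Cx3cl1. Chromosome 11 held 12 chemokine genes, 8 of them kept, and 0 of these differed by 1.5-fold in any comparison. Of all kept genes, 1.41% were lower and 2.17% higher with palmitic acid than in the control, so an absence among 8 genes is near the background. All 8 were bright, with control values of 11.28 or more. Of the other kept genes of chromosome 5, Cxcl3 came next to the limit, and Cxcl1 and Cxcl2, its neighbours beyond the dim Cxcl15, lay close to the control.

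The receptors on the cells that chemokines act upon were mostly dim here, with 9 of 23 measured receptor genes kept. Cxcr3 and Ccr4, which bind the ligands that were lower and are named here after their values were seen, were not among them, with 6.64 and 5.95 with palmitic acid and 6.82 and 5.99 in the control. Cxcr1, a neutrophil receptor for ELR chemokines, had a level of 7.77 with palmitic acid, 7.20 with oleic acid, 7.25 with linoleic acid and 7.09 in the control. Its palmitic acid difference of 0.68 was the 1 difference of 1.5-fold from the control among the kept receptor genes in that array, beside 2.17% of all kept genes. The neutrophil markers, 1 of 7 kept, summed to log2 9.46 with palmitic acid and 9.61 in the control. Ccr1, which binds Ccl3 and Ccl5 on monocytes and macrophages, had 9.27 with palmitic acid, 9.77 with oleic acid, 8.74 with linoleic acid and 8.82 in the control. The oleic acid array was the highest, by 0.95 against the control, and the difference between linoleic acid and oleic acid was -1.03. Cxcr4, the receptor of Cxcl12, had 8.34 with palmitic acid, 7.81 with oleic acid, 7.75 with linoleic acid and 7.79 in the control, so palmitic acid stood apart there by 0.56 against the control and 0.60 against linoleic acid. Ccrl2, which binds chemerin and does not signal, was bright at 13.49 with palmitic acid, 13.41 with oleic acid, 13.38 with linoleic acid and 13.35 in the control. Pf4, a CXC chemokine whose symbol lies outside the rule, had 10.72 with palmitic acid and 10.77 in the control.

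Lists of genes linked to interferon gamma, IL-4, GM-CSF and NF-kB signalling were set beside the chemokine genes. The lists hold responding genes and also parts of the pathways, such as Ifngr1, Jak1, Il4ra and Csf2ra. Which signals act on the lower chemokine genes in these cells was not measured. Of 25 kept genes of the interferon gamma response, 1 lay at least 1.5-fold below the control with palmitic acid, beside 1.41% of all kept genes, and 0 above it, beside 2.17%. The median was -0.0039, or 0.0050 with array medians centred and -0.04 with quantile normalisation repeated. That gene was Fcgr1, a high-affinity IgG receptor that is also on the macrophage marker list, with 10.03 with palmitic acid, 11.34 with oleic acid, 10.86 with linoleic acid and 10.69 in the control. Socs1, an inhibitor of JAK and STAT signalling, differed by -0.52 and Cd274, which codes for PD-L1, by 0.38. Iigp1, an interferon-inducible GTPase, differed by -0.31. With linoleic acid, 23 of the 25 lay above the control (20 with array medians centred), with a median of 0.10, and 0 reached 1.5-fold. Of all 11174 kept genes, 7288 lay above the control with linoleic acid.

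Of 13 kept genes of the IL-4 and STAT6 response, 0 differed by 1.5-fold with palmitic acid, beside 1.41% lower and 2.17% higher of all kept genes, and the median was -0.0022, or 0.0067 with array medians centred. Its members farthest from the control were Myc (0.51), Batf3 (-0.31), Klf4 (0.31) and Egr2 (0.26), all transcription factor genes. Of 11 kept genes of the GM-CSF and IRF4 axis, 1 was lower and 0 were higher, beside the same 1.41% and 2.17%, and the median was 0.03. The lower gene was Csf2, which codes for GM-CSF itself, with a level of 7.44 with palmitic acid, 8.56 with oleic acid, 8.78 with linoleic acid and 8.97 in the control. Its palmitic acid difference was -1.52, and all 3 fatty acid arrays lay below the control. Socs2 (-0.44) and Cish (-0.34), which code for feedback inhibitors of cytokine signalling, and the histone demethylase gene Kdm6b (0.35) followed.

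Of 19 kept NF-kB target genes, 2 lay 1.5-fold or more below the control with palmitic acid, beside 1.41% of all kept genes, 0 as far above it, beside 2.17%, and the median was -0.12. In all, 17 of the 19 lay below 0, beside 5577 of 11174 kept genes. Bcl3, an IkB family regulator, differed by -0.60, and the cytokine gene Il6 by -0.59. With array medians centred Il6 differed by -0.58, inside the limit, and the count was 1. Cd83, a maturation marker, differed by -0.54 and Birc3, an inhibitor of apoptosis, by -0.29. Of the 5 kept chemokine genes with an NF-kB match, Cxcl1, Cxcl2, Ccl9 and Cxcl10 lay between -0.06 and 0.08 in the same comparison. The other, Cxcl3, lay at -0.49. Cxcl2, Ccl9 and Cxcl10 were at or above 13 in the control, where 0.671% of genes passed 1.5-fold. Against linoleic acid, 18 of the 19 lay below 0 with palmitic acid (16 with array medians centred), beside 6425 of 11174 kept genes, with a median of -0.22.

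**Figure D4:**
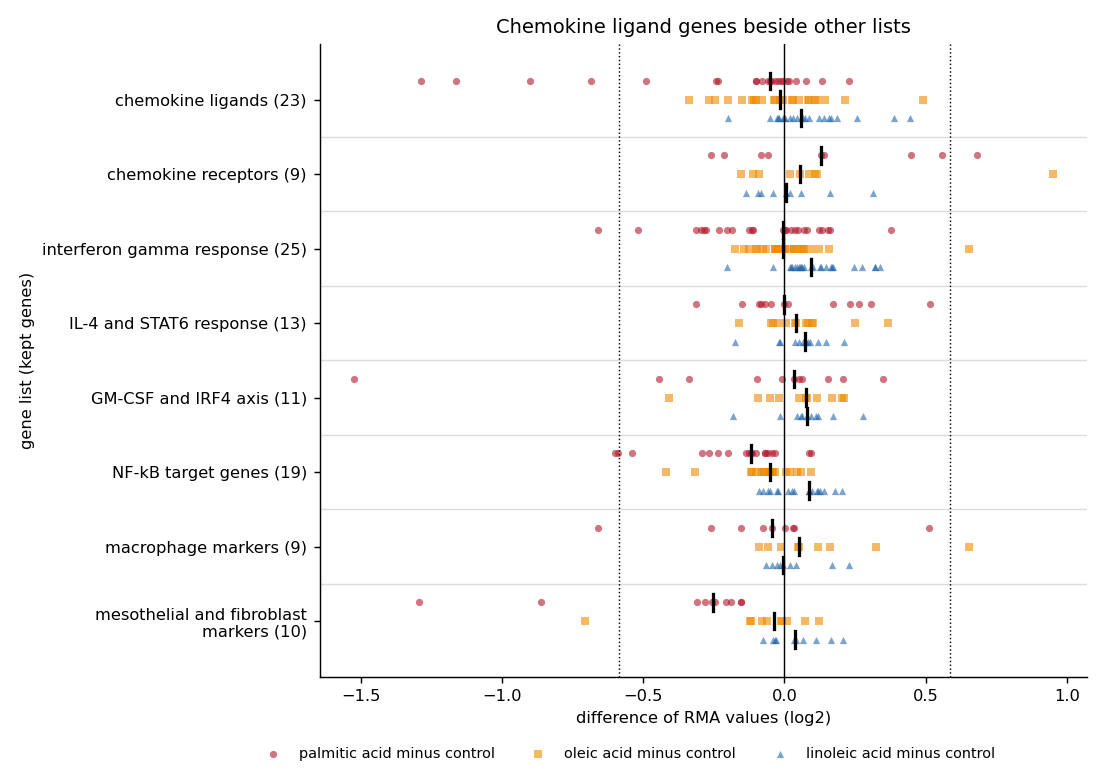
Differences from the control (log2, x axis) of every kept gene in 8 lists (rows, number of genes in parentheses), for palmitic acid, oleic acid and linoleic acid from top to bottom within a row, 1 point per gene. Black bars are list medians and dotted lines mark 1.5-fold. The chemokine ligands have a tail of 4 genes below the lower line with palmitic acid while their median stays at -0.05, and the mesothelial and fibroblast markers lie wholly below 0 with palmitic acid.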

How the data were processed

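The deposited values are log2 expression values. Per the submitters' processing notes the authors made them with RMA, which subtracts background, brings all arrays to a common distribution and combines the probes of a set. For RMA's version, the build and whether sets are transcripts or exons, nothing is given in the sources used here. The quantile step of RMA gives the arrays similar distributions (medians 7.07 to 7.13), so a shift shared by most genes would not be seen. Of 35556 probes, 21789 have exactly 1 gene in the platform annotation, 1621 several and 12146 none listed. Symbols were checked through Entrez identifiers in RefSeq, which matched all 34 chemokine genes.

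Probes of a gene were averaged. A gene was kept where the highest of its 4 values reached 7.09, the median of all values (50th percentile). Differences were taken between 2 arrays, and a gene was counted at 1.5-fold or more. With 1 array per group there is no spread, p-value or interval, and the number of arrays limits the precision. Robust SD is the scaled median absolute deviation over kept genes. Brightness ordered genes only to choose names and to place them in a figure, since levels of different probes do not rank transcripts. The chemokine genes, the lists and the thresholds were chosen with earlier results of these data known.

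Genes given with all 4 values were those at 1.5-fold in any of the 6 comparisons, Ccl17, Ccl22, Cxcl9 and Cxcl10, and the 2 brightest of each receptor class. Receptors were named at 1.5-fold from the control or among the 3 brightest, and genes of other lists among the 4 with the largest palmitic acid differences; exceptions are stated. The alternatives were 2 scalings, 3 filters, another choice of probe, dim values set to the filter and a limit of 2-fold. Promoter windows and coordinates are RefSeq's on GRCm38.p6 and are not those of the array annotation. Counting was tested on simulated data. Python 3.11.15, pandas 2.3.3, NumPy 2.4.6 and Matplotlib 3.10.9 were used.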

Additional observations from a re-analysis of the deposited data

Results flagged for a closer look

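Fcgr1, which codes for the high-affinity IgG receptor and entered through the interferon gamma list, differed from the control in opposite directions, by -0.66 with palmitic acid and by 0.65 with oleic acid. Both are at least 1.5-fold, from 1 array per group, and the difference between the 2 effects was not tested. No kept chemokine gene showed opposite differences of that size.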

How the results depend on the processing

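With 1 array of pooled RNA per group, no result has a replicate check, and array values close to the highest of any probe or to the filter bound what can be read. No paired analysis was possible because each group has 1 array. Over 8 alternatives, the counts and medians were scored as held in 91 cases and as moved in 5. A count of 0 could not move under a stricter filter or a limit of 2-fold, so such cases held by construction. Small medians still changed sign with the scaling. The chemokine median for oleic acid minus control did so under both other scalings. That for linoleic minus oleic acid went from 0.01 to -0.04 with array medians centred. At 2-fold, the chemokine genes lower with palmitic acid numbered 2 against the control (Cxcl9, Ccl22), 2 against linoleic acid (Cxcl9, Ccl22) and 2 against oleic acid (Cxcl9, Cxcl11), and 0 were higher with linoleic acid than with oleic acid. With the filter at the 75th percentile, where 17 chemokine genes were kept, that last count was also 0, since Ccl24 was not kept. The other alternatives kept those counts within 1.5 times, with Cxcl3 a 5th gene lower against oleic acid under both scalings. Over the alternatives that kept each gene, the palmitic acid difference from control was -1.36 to -1.28 for Cxcl9, -1.21 to -1.15 for Ccl22, -0.93 to -0.89 for Cxcl11 and -0.74 to -0.68 for Ccl17, and the linoleic minus oleic acid difference of Ccl24 was 0.59 to 0.64. The linoleic acid differences of Cxcl10 (-0.01 to 0.05) and Cxcl11 (-0.01 to 0.06) changed sign with the scaling. Over all kept genes, 50% of those at 1.5-fold between linoleic acid and control were higher (4 against 4 lower), 22.2% (2 against 7) with array medians centred and 18.2% (2 against 9) with quantile normalisation repeated. Between linoleic acid and oleic acid the shares were 67.5%, 52.2% and 50.4%. Without a filter the linoleic acid counts were 20 higher and 9 lower, and with the filter at the 75th percentile 3 and 1. At 2-fold, all kept genes counted 33 lower for palmitic acid against the control, 32 against oleic acid and 51 against linoleic acid.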
